A study of Homo sapiens with 6 samples.

Results

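Mitochondrial chaperones and proteases were followed as 10 genes chosen by name, all of them found among the 55401 gene names of the files and all among the 15148 tested genes. They are HSPA9 and TIMM44 of the import motor, the chaperonin pair HSPD1 and HSPE1, the matrix proteases LONP1, CLPX and CLPP, the inner-membrane proteases AFG3L2 and YME1L1, and HTRA2 of the intermembrane space. RNA sequencing was done on RMS13, a human alveolar rhabdomyosarcoma line from a cell bank, and on RMS13-R, a derived line that resists the drug. The drug, MAL3-101, blocks chaperones of the HSP70 family, and DMSO is its vehicle. The 3 groups of 2 libraries, A and B, were resistant cells with 10 µM MAL3-101, parental cells with 10 µM MAL3-101 and parental cells with DMSO, each for 9 h in medium with serum.

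Resistant cells given DMSO were not analysed here, so the line and its drug response cannot be told apart in resistant libraries. RMS13-R is 1 line, and the labels give neither how it was selected nor whether it is clonal. Nor is it stated that A and B came from different cultures. The spread behind each p-value is therefore that between these libraries, and it may be technical. Of 10 muscle and rhabdomyosarcoma markers, 8 or 9 reached 1 TPM in every library, with sums of 2203 to 2224 TPM in resistant MAL3-101, 2253 to 2254 TPM in parental MAL3-101 and 2303 to 2453 TPM in parental DMSO libraries; MYF5 was listed at 0 throughout. Within these sums single markers moved apart: 5 of the 9 tested were higher and 3 lower in resistant cells, both against parental cells with the drug and against DMSO. Over all tested genes 21.3% and 20.9% were higher and 34.8% and 29.7% lower in these comparisons. CHRNA1 had 52.1 and 49.9 TPM in resistant, 315 and 312 TPM in parental MAL3-101 and 285 and 337 TPM in DMSO libraries, and MYOD1 and TFAP2B were also lower in resistant cells, while MYOG, DES, PAX3 and FOXO1 were higher in both comparisons. The part of these marker differences in the values of the 10 genes was not tested. Markers of leukocytes summed to at most 1.78 TPM and of endothelial cells to at most 0.55 TPM in any library. The endothelial sum covers 3 of 4 markers, as PECAM1 was not found among the gene names. Fibroblast markers summed to 2.80 to 3.34 TPM in resistant, 25.0 to 26.5 TPM in parental MAL3-101 and 18.7 to 20.8 TPM in DMSO libraries, and epithelial markers to 0.59 to 0.65, 6.61 to 6.75 and 4.09 to 4.11 TPM in the same order; their part in the results was not tested. Levels are TPM values, which are scaled per transcript length and so can be compared between genes. In these bulk cultures fewer cells of a type and less RNA per cell cannot be told apart.

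Nearly all mitochondrial proteins are made in the cytosol and enter the organelle unfolded. In the matrix, the mitochondrial HSP70 encoded by HSPA9 (mortalin) pulls them in at the inner membrane, where TIMM44 anchors it to the translocase, and the HSP60 chaperonin folds them under its HSP10 lid. ATP-driven proteases degrade what fails to fold, and a shortage of folding capacity is known to raise these genes through a mitochondrial unfolded protein response that in mammals is linked to ATF4, ATF5 and CHOP.

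The 10 genes did not all move alike. HSPA9, TIMM44, LONP1 and HSPD1 were higher in parental cells with MAL3-101 than with DMSO, and lower in resistant than in parental cells with the drug. CLPX and AFG3L2 were highest in resistant cells. HSPA9, HTRA2 and CLPP were lowest there, though the CLPP difference from parental cells with the drug did not pass. YME1L1 and HSPE1 passed the test in none of the 3 comparisons. Their summed level was 2043 and 1999 TPM in resistant libraries A and B, 2580 and 2478 TPM in parental MAL3-101 libraries, and 2016 and 1988 TPM in parental DMSO libraries, so the sum was high in the parental MAL3-101 pair alone. HSPD1 and HSPE1 made up 60.7 ± 0.739%, 54.6 ± 1.17% and 56.5 ± 0.823% of it (SD, n = 2) in the same order.

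**Figure D1:**
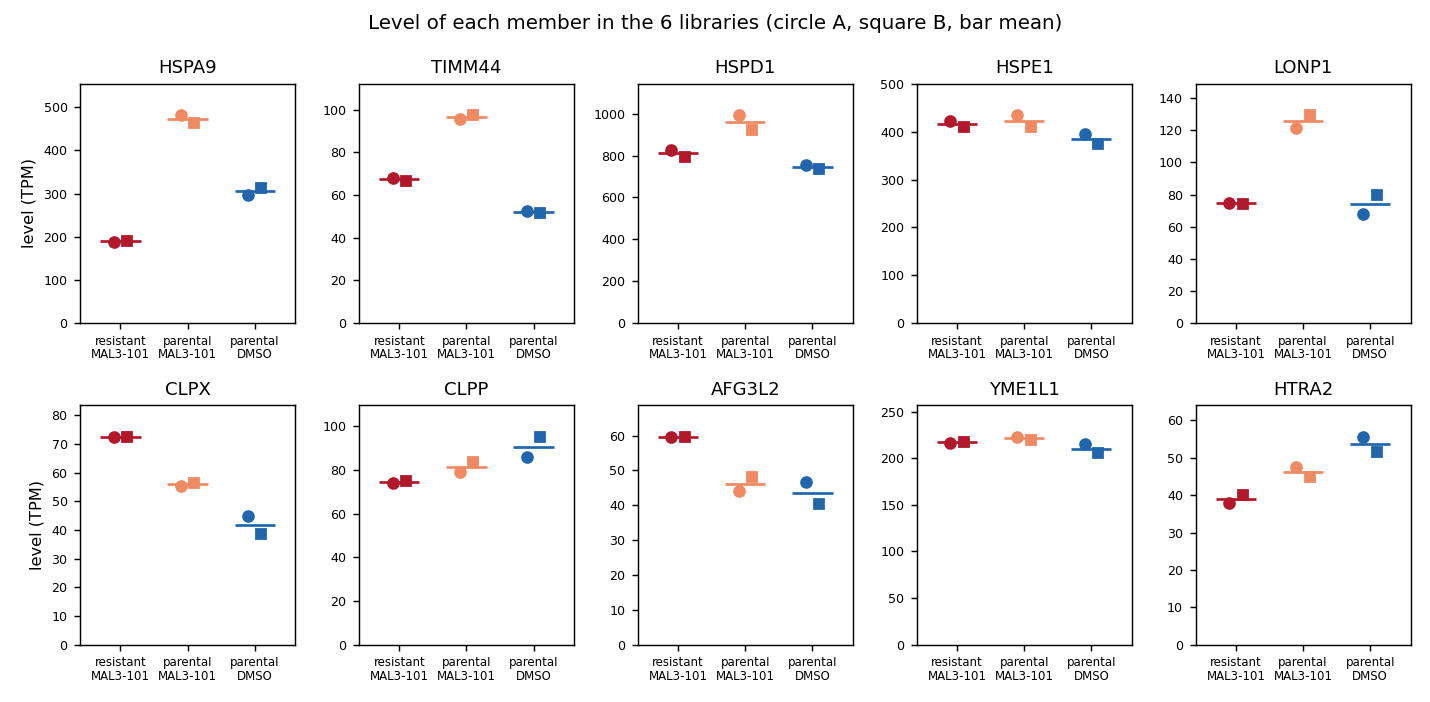
Level of each of the 10 genes in TPM, on axes that start at 0, in resistant MAL3-101, parental MAL3-101 and parental DMSO libraries; circles are library A, squares library B and bars the mean of 2. HSPA9 stands lowest and CLPX highest in the resistant pair, while TIMM44, LONP1 and HSPD1 stand highest in the parental MAL3-101 pair.

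HSPA9 had 188.5 and 190 TPM in resistant MAL3-101 libraries A and B, 483 and 465 TPM in parental MAL3-101 libraries, and 297 and 313 TPM in parental DMSO libraries. The 3 pairs did not overlap, and resistant cells had the lowest level. Against parental cells with the drug the log2 fold change was -1.32 (SE 0.05, adjusted p = 3.0e-06), a 2.49-fold lower level, and 5.63% of tested genes changed by more. Against parental DMSO cells the resistant level was also lower, by -0.68 (SE 0.05, adjusted p = 4.5e-05). Within parental cells, MAL3-101 went with a rise of 0.63 (SE 0.05, adjusted p = 1.5e-04). All 3 calls held under every alternative run.

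TIMM44, the peripheral inner-membrane subunit that ties mitochondrial HSP70 to the presequence translocase, had 68.0 and 66.5 TPM in resistant libraries, 95.8 and 97.6 TPM in parental MAL3-101 libraries, and 52.4 and 51.5 TPM in DMSO libraries. Its pairs did not overlap, with DMSO lowest. Its rise with MAL3-101 in parental cells, 0.88 (SE 0.05, adjusted p = 4.4e-05), was the largest of the 10 genes, and 5.22% of tested genes changed by more. Resistant cells lay 0.52 below parental cells with the drug (log2 fold change -0.52, SE 0.05, adjusted p = 1.4e-04) but 0.37 above DMSO cells (SE 0.05, adjusted p = 8.3e-04). HSPA9 and its anchor thus stood on opposite sides of the DMSO level in resistant cells. The ratio of HSPA9 to TIMM44 within a library was 2.77 and 2.86 in resistant, 5.04 and 4.76 in parental MAL3-101, and 5.66 and 6.08 in DMSO libraries. Ratios are given as values with no test; an exact permutation test of 2 libraries against 2 cannot go below p = 0.333 (two-sided).

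The chaperonin genes HSPD1 (HSP60) and HSPE1 (HSP10) lie head to head on chromosome 2 and are transcribed away from each other. RefSeq gives 1 start for HSPE1 and 2 for HSPD1, which lie 105 and 539 bases from it. The 250 bases before a start of each gene are shown because the shared stretch between them is a textbook bidirectional heat shock promoter; capitals mark matches to a pair of heat shock element units, GAANNTTC or TTCNNGAA, on either strand.
HSPD1 (chr2:197499841-197500090, minus strand, GRCh38.p14): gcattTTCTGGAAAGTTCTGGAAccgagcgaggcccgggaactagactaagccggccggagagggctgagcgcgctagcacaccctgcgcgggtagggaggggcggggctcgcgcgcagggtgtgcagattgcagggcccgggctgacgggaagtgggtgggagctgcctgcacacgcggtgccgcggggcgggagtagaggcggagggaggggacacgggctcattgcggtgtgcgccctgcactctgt
HSPE1 (chr2:197500129-197500378, plus strand, GRCh38.p14): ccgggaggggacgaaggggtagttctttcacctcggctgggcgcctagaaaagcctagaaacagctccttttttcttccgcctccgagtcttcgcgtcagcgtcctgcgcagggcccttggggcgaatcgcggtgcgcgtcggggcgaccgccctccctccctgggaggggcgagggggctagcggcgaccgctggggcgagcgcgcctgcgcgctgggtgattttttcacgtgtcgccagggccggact
The HSPD1 window holds 3 overlapping matches in a run of 18 bases, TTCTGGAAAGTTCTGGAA, at chr2:197500068-197500085. That run lies 228 to 245 bases upstream of this HSPD1 start, the one 539 bases from HSPE1. It lies 294 to 311 bases upstream of the HSPE1 start, just outside the HSPE1 window, which holds no match. The other HSPD1 start, 105 bases from HSPE1, has the run downstream of it, and its window holds no match. Of 35116 RefSeq windows of this length over all genes 11.58% hold such a pair, and 1 of the 11 windows of the members does (windows were found for 8 of the 10 genes). A match is a description of letters and not a test of binding.

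HSPD1 was the most abundant of the 10, with 828 and 794 TPM in resistant, 995 and 922 TPM in parental MAL3-101 and 756 and 737 TPM in DMSO libraries. Its level in resistant cells stood at the 99.0 percentile of tested genes. The pairs did not overlap, with the parental MAL3-101 pair highest. It rose by 0.36 with MAL3-101 in parental cells (SE 0.05, adjusted p = 0.0020), and resistant cells were lower than these by -0.24 (SE 0.05, adjusted p = 0.0064). That last call was lost without parental MAL3-101 library A (adjusted p = 0.065), without resistant library B (adjusted p = 0.070) and with median-ratio scaling (adjusted p = 0.071). Against DMSO cells, resistant cells differed by 0.12 (95% interval -0.005 to 0.24, adjusted p = 0.098), a difference that passed with median-ratio scaling (adjusted p = 0.023).

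HSPE1, which encodes the co-chaperonin lid, had 423 and 409 TPM in resistant, 436 and 411 TPM in parental MAL3-101 and 395 and 374 TPM in DMSO libraries. The resistant and parental MAL3-101 pairs overlapped, and both lay above the DMSO pair. The log2 differences were -0.02 (95% interval -0.14 to 0.10) between resistant and parental cells with the drug, 0.11 (-0.006 to 0.23) between resistant and DMSO cells, and 0.14 (0.02 to 0.26, adjusted p = 0.067) between parental MAL3-101 and DMSO cells. Without DMSO library A the parental difference passed (adjusted p = 0.014), as did the resistant one against DMSO (adjusted p = 0.022). That difference between resistant and DMSO cells was 0.19 with median-ratio scaling and passed (adjusted p = 0.017). The ratio of HSPE1 to HSPD1 was 0.511 and 0.516 in resistant, 0.438 and 0.445 in parental MAL3-101, and 0.522 and 0.508 in DMSO libraries, low in the parental MAL3-101 pair alone. Processed copies of HSPD1 could share its reads, but the 15 copies named in the files summed to 0.97 to 1.70 TPM in a library, at most 0.218% of HSPD1.

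**Figure D2:**
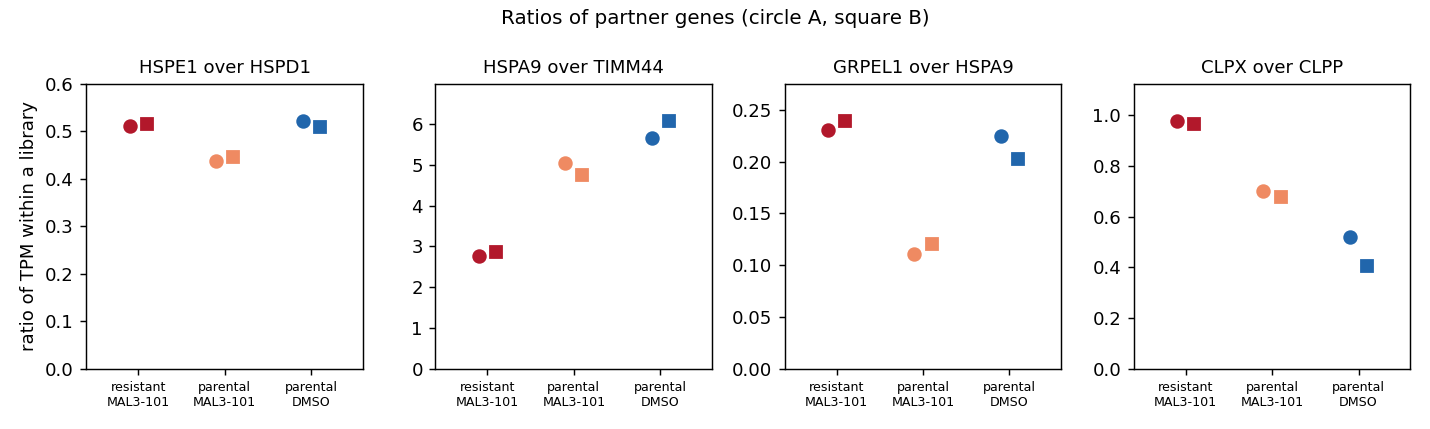
Ratio of TPM between partner genes within each library, on axes that start at 0, for resistant MAL3-101, parental MAL3-101 and parental DMSO libraries (circle A, square B). HSPE1 over HSPD1 and GRPEL1 over HSPA9 are lowest in the parental MAL3-101 pair, HSPA9 over TIMM44 is lowest and CLPX over CLPP highest in the resistant pair.

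LONP1, the main soluble protease of the matrix, which degrades oxidised and misfolded proteins, had 74.7 and 74.3 TPM in resistant, 122 and 130 TPM in parental MAL3-101, and 67.9 and 80.0 TPM in DMSO libraries. The resistant pair lay inside the range of the DMSO pair, and the parental MAL3-101 pair lay above both. The rise in parental cells was 0.76 (SE 0.08, adjusted p = 6.0e-04), and resistant cells were lower than parental cells with the drug by -0.74 (SE 0.08, adjusted p = 2.5e-04). Between resistant and DMSO cells the difference was 0.02 (95% interval -0.17 to 0.20), and its sign turned without DMSO library A (-0.10). RefSeq lists a pair of LONP1 starts, and the 250 bases before the upstream one are shown because they hold the NRF1 element (in capitals), a palindrome bound by a factor known for mitochondrial genes.
LONP1 (chr19:5720453-5720702, minus strand, GRCh38.p14): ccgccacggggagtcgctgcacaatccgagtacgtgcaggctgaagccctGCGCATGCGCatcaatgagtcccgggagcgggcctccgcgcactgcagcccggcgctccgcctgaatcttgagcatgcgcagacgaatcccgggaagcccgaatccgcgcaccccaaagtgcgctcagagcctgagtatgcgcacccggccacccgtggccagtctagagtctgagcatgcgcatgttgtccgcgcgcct
The element, its own reverse complement, is in 1.03% of all windows and in this 1 of the 11 of the members. A C/EBP-ATF element, TGATGNAA on either strand, is in 3.14% of all windows and in 0 of the 11. A CCAAT box is in 32.01% of all windows, and in those of CLPX and TIMM44 among the members.

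CLPX and CLPP encode the unfoldase and the peptidase of the same matrix protease, ClpXP, and moved apart. CLPX had 72.6 and 72.4 TPM in resistant, 55.4 and 56.4 TPM in parental MAL3-101 and 44.8 and 38.6 TPM in DMSO libraries, 3 pairs that did not overlap. It was higher in resistant than in DMSO cells by 0.79 (SE 0.07, adjusted p = 1.8e-04), higher in resistant than in parental cells with the drug by 0.37 (SE 0.07, adjusted p = 0.0046), and higher with MAL3-101 in parental cells by 0.42 (SE 0.07, adjusted p = 0.0046). These 3 calls held under every alternative run. CLPP had 74.3 and 74.9 TPM in resistant, 79.2 and 83.5 TPM in parental MAL3-101 and 86.0 and 95.4 TPM in DMSO libraries, in the reverse order.

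CLPP was lower in resistant than in DMSO cells by -0.28 (SE 0.06, adjusted p = 0.0092). The call was lost without either resistant library (adjusted p = 0.066 for A, 0.058 for B) and with median-ratio scaling (adjusted p = 0.052). Its differences of -0.12 between resistant and parental cells with the drug (95% interval -0.27 to 0.03, adjusted p = 0.14) and of -0.15 between parental MAL3-101 and DMSO cells (-0.30 to -0.005, adjusted p = 0.091) did not pass. With the 4 libraries compared alone, so without the DMSO spread, the difference between resistant and parental cells with the drug passed (adjusted p = 0.026). Without DMSO library A the difference between parental MAL3-101 and DMSO cells was -0.23. The ratio of CLPX to CLPP was 0.977 and 0.966 in resistant, 0.699 and 0.676 in parental MAL3-101, and 0.520 and 0.405 in DMSO libraries. The resistant pair thus held nearly equal TPM of the CLPX and CLPP RNAs, and protein was not measured here.

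AFG3L2 and YME1L1 are AAA proteases of the inner membrane, the first facing the matrix and the second the intermembrane space. AFG3L2 had 59.7 and 59.6 TPM in resistant, 44.1 and 48.1 TPM in parental MAL3-101 and 46.7 and 40.5 TPM in DMSO libraries. Resistant libraries lay above the other 4, and the parental pairs overlapped. The difference was 0.45 against DMSO (SE 0.08, adjusted p = 0.0033) and 0.37 against parental cells with the drug (SE 0.08, adjusted p = 0.0069). Without parental MAL3-101 library A the difference between the groups given the drug was not called (adjusted p = 0.060). In parental cells the drug difference was 0.08 (95% interval -0.11 to 0.27); it was 0.18 without DMSO library A, which passed (adjusted p = 0.044), and -0.020 without DMSO library B.

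YME1L1 had 216 and 218 TPM in resistant, 223 and 220 TPM in parental MAL3-101 and 215 and 205 TPM in DMSO libraries, a narrow range. Its log2 differences were -0.03 (95% interval -0.13 to 0.08) between resistant and parental cells with the drug, 0.05 (-0.06 to 0.15) between resistant and DMSO cells, and 0.08 (-0.03 to 0.18) between parental MAL3-101 and DMSO cells. The last passed without DMSO library A (0.11, adjusted p = 0.028). With median-ratio scaling the difference between resistant and parental cells with the drug turned to 0.078, and that against DMSO, 0.12, passed (adjusted p = 0.043).

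HTRA2, a serine protease of the intermembrane space that can be released to oppose inhibitor of apoptosis proteins, had 38.0 and 40.0 TPM in resistant, 47.4 and 45.0 TPM in parental MAL3-101 and 55.7 and 51.6 TPM in DMSO libraries. The 3 pairs did not overlap, with the resistant pair lowest. Resistant cells were lower than DMSO cells by -0.45 (SE 0.07, adjusted p = 0.0012), a call held under every alternative. They were lower than parental cells with the drug by -0.24 (SE 0.07, adjusted p = 0.017), a call lost on leaving out library A of the parental MAL3-101 pair (adjusted p = 0.12) or either resistant library (adjusted p = 0.12 for A, 0.056 for B), and with median-ratio scaling (adjusted p = 0.084). In parental cells it was lower with MAL3-101 by -0.21 (SE 0.07, adjusted p = 0.039). That call was lost without either parental MAL3-101 library (adjusted p = 0.099 for A, 0.21 for B), on leaving out DMSO library A (adjusted p = 0.064) or either resistant library (adjusted p = 0.077 for A, 0.078 for B). It was also lost with no filter (adjusted p = 0.077) and with the 4 parental libraries alone (adjusted p = 0.076).

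**Figure D3:**
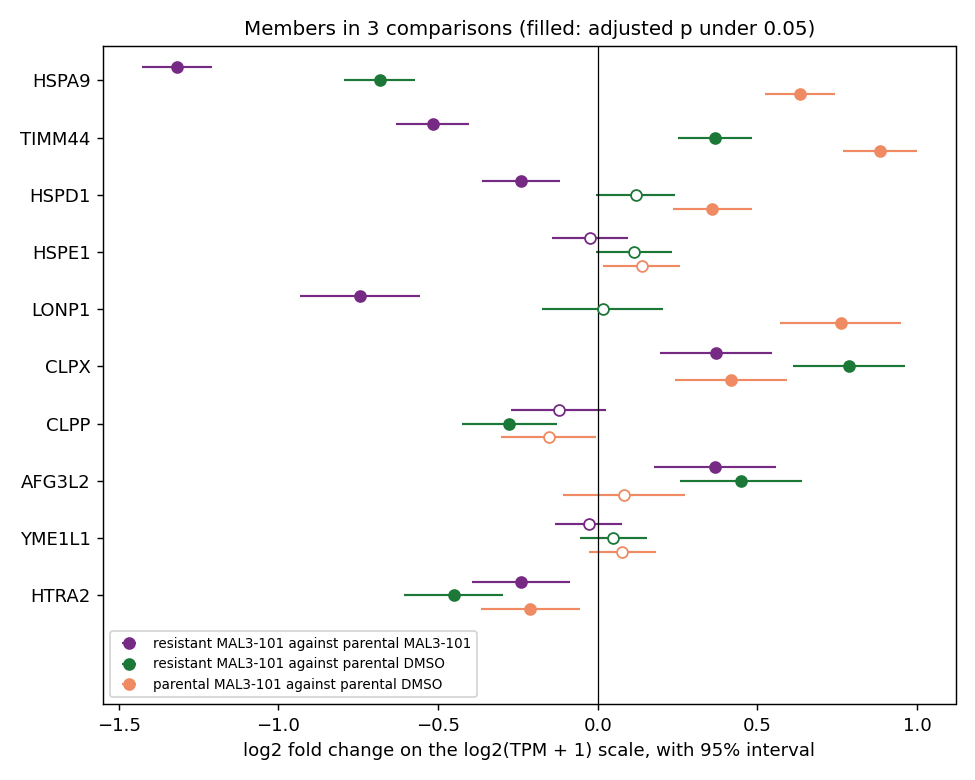
Log2 fold change of each gene on the log2(TPM + 1) scale with its 95% interval from limma, for resistant against parental cells with MAL3-101, resistant MAL3-101 against parental DMSO, and parental MAL3-101 against parental DMSO; filled points have an adjusted p under 0.05. HSPA9 lies farthest to the left at -1.32 and TIMM44 farthest to the right at 0.88.

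Counted over the 10 genes, resistant cells differed from parental cells with the drug in 2 higher and 5 lower genes, where 21.3% of all tested genes were called higher and 34.8% lower (56.1% in all). With median-ratio scaling the split was 2 higher and 3 lower, and over all genes 4185 higher and 4388 lower in place of 3228 and 5267. Without parental MAL3-101 library A, 4 members and 6227 genes in all were called, in place of 7 and 8495. Against parental DMSO cells, resistant cells had 3 higher and 3 lower genes, beside 20.9% and 29.7% of all tested genes (50.6% in all). With median-ratio scaling it was 6 and 2, and over all genes 3944 higher and 3867 lower in place of 3160 and 4502. In parental cells MAL3-101 went with 5 higher and 1 lower, beside 22.6% and 18.2% of all tested genes (40.8% in all). Without DMSO library A, 9 members and 7684 genes in all were called, in place of 6 and 6181. The median log2 fold change of the members was -0.18, 0.08 and 0.25 in these comparisons, against -0.10, -0.06 and 0.02 over all tested genes. Library pairs that do not overlap are common here: between resistant and parental cells with the drug 2 members lay wholly higher and 7 wholly lower, beside 34.0% and 49.4% of all tested genes (83.4% in all). Against DMSO it was 6 and 3 for resistant cells, beside 32.6% and 43.2% (75.8% in all), and 7 and 2 for parental cells with the drug, beside 37.5% and 32.3% (69.8% in all). The comparisons share libraries, so they are not separate evidence.

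Partners of mitochondrial HSP70 and other matrix chaperones gave 0 higher and 4 lower of 10 in resistant against parental cells with the drug, 0 and 3 against DMSO, and 2 and 1 in parental MAL3-101 against DMSO cells. Over all tested genes the shares higher and lower were 21.3% and 34.8%, 20.9% and 29.7%, and 22.6% and 18.2% in the same order. The nucleotide exchange factors of HSPA9 went opposite ways with the drug in parental cells and were both lower in resistant than in parental cells with the drug. GRPEL2 had 9.39 and 10.5 TPM in resistant, 21.4 and 21.3 TPM in parental MAL3-101 and 11.1 and 11.1 TPM in DMSO libraries, and rose in parental cells by 0.89 (SE 0.09, adjusted p = 4.6e-04). In resistant cells it was lower than in parental cells with the drug by -1.04 (SE 0.09, adjusted p = 8.7e-05), and its difference of -0.15 from DMSO cells did not pass. GRPEL1, the housekeeping one, had 43.5 and 45.6, 53.6 and 56.1, and 66.5 and 63.4 TPM in the same libraries. It was lower in resistant cells by -0.29 against parental cells with the drug and by -0.53 against DMSO, and in parental cells lower with MAL3-101 by -0.24 (adjusted p = 0.016), a call lost without either parental MAL3-101 library (adjusted p = 0.12 for A, 0.059 for B). GRPEL1 to HSPA9 stood at 0.231 and 0.239 in resistant, 0.111 and 0.121 in parental MAL3-101, and 0.224 and 0.202 in DMSO libraries. DNAJA3, the matrix J-protein of HSPA9, was lower in resistant cells by -0.80 against parental cells with the drug and by -0.63 against DMSO. The CLPB call in resistant cells against DMSO was lost with no filter (adjusted p = 0.061) and under other alternatives.

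Import genes were called lower more often than higher in parental cells with the drug. Of 20 genes of mitochondrial protein import, 2 were higher and 12 lower in parental cells with MAL3-101 than with DMSO. The counts were 7 and 7 in resistant against parental cells with the drug, and 2 and 10 in resistant cells against DMSO. The shares of all tested genes were 22.6% and 18.2%, 21.3% and 34.8%, and 20.9% and 29.7% in this order. TOMM5, a small subunit of the outer-membrane pore, had 186 and 190 TPM in resistant, 131 and 129 TPM in parental MAL3-101 and 240 and 215 TPM in DMSO libraries, lower with the drug in parental cells by -0.80. TIMM9, a small chaperone of the intermembrane space, went the other way at 39.4 and 33.2, 56.1 and 61.3, and 36.8 and 39.9 TPM, higher with the drug by 0.60. TIMM8A was lowest in resistant cells, by -0.89 against DMSO, followed by TOMM7 at -0.65 and TOMM40, the pore itself, at -0.49.

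Other mitochondrial proteases gave 6 higher and 2 lower of 13 in resistant against parental cells with the drug, 3 and 1 against DMSO, and 2 and 5 in parental MAL3-101 against DMSO cells. In the same order, 21.3% and 34.8%, 20.9% and 29.7%, and 22.6% and 18.2% of all tested genes were called. PITRM1, which clears cleaved presequences in the matrix, had 88.5 and 92.8 TPM in resistant, 41.6 and 40.9 TPM in parental MAL3-101 and 43.5 and 33.8 TPM in DMSO libraries, higher in resistant cells by 1.12 (SE 0.11) against parental cells with the drug and by 1.22 against DMSO. IMMP2L, an inner-membrane peptidase, was lower in resistant cells than with DMSO by -1.06. In parental cells the calls of IMMP2L and MIPEP were lost with no filter (adjusted p = 0.056 and 0.090) and under other alternatives. SPG7, which assembles with AFG3L2 into one protease, had 126 and 141 TPM in resistant, 87.4 and 93.4 TPM in parental MAL3-101 and 124 and 112 TPM in DMSO libraries. It was higher in resistant than in parental cells with the drug by 0.56, and its fall of -0.38 in parental cells was lost without parental MAL3-101 library A (adjusted p = 0.062).

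Among 9 scaffolds, substrates and targets of the proteases, 4 were higher and 3 lower in resistant against parental cells with the drug, 3 and 3 against DMSO, and 2 and 2 in parental MAL3-101 against DMSO cells. Beside this, 56.1%, 50.6% and 40.8% of all tested genes were called in either direction. PHB and PHB2 form the ring that holds AFG3L2 and SPG7 in the inner membrane. PHB was at 334 and 333 TPM in resistant, 240 and 227 TPM in parental MAL3-101 and 342 and 333 TPM in DMSO libraries, lower with the drug in parental cells by -0.53, and PHB2 was higher in resistant than in DMSO cells by 0.41. ALAS1, a heme synthesis enzyme degraded by LONP1, was at 31.5 and 31.9, 67.6 and 65.1, and 45.1 and 50.8 TPM in the same libraries. Its order, resistant lowest and parental MAL3-101 highest, was that of HSPA9. C2orf47, the older symbol of the AFG3L2 partner MAIP1, was higher in resistant than in DMSO cells by 0.65. With no filter the OPA1 call in parental cells was lost (adjusted p = 0.10). So was the TFAM call in resistant cells against DMSO (adjusted p = 0.14), and both were lost under other alternatives.

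**Figure D4:**
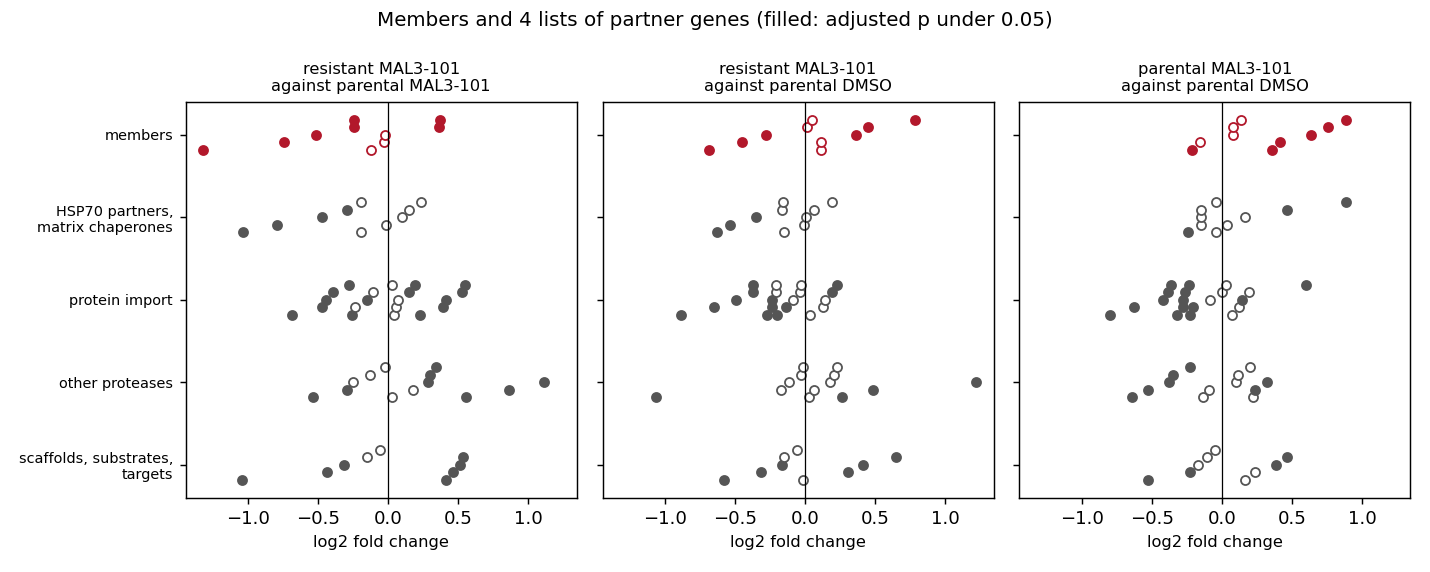
Log2 fold changes of the 10 members (red) and of 4 lists of partner genes (grey) in resistant against parental cells with MAL3-101, resistant MAL3-101 against parental DMSO, and parental MAL3-101 against parental DMSO; each point is 1 gene and filled points have an adjusted p under 0.05. In the right panel 12 of 20 import genes are called lower while 5 of 10 members are called higher. Over all tested genes 18.2% are called lower and 22.6% higher there.

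Of 7 genes of mitochondrial stress transcription and relay, 0 were higher and 6 lower in resistant against parental cells with the drug, 4 and 2 in resistant cells against DMSO, and 4 and 0 in parental MAL3-101 against DMSO cells. All tested genes gave 21.3% and 34.8%, 20.9% and 29.7%, and 22.6% and 18.2% in this order. The same shares stand beside the mitochondrially encoded RNAs below. The stress list is named for a known link, and whether its changes came from stress in mitochondria was not tested. ATF5 had 56.3 and 57.9 TPM in resistant, 142 and 154 TPM in parental MAL3-101 and 33.2 and 47.9 TPM in DMSO libraries, and ATF4 492 and 515, 656 and 653, and 249 and 249 TPM. ATF5 rose by 1.86 with MAL3-101 in parental cells (SE 0.15, adjusted p = 2.0e-04), and its difference of 0.51 between resistant and DMSO cells was lost without either resistant library (adjusted p = 0.091 for A, 0.11 for B) and with no filter (adjusted p = 0.095). DDIT3, which encodes CHOP, had 370 and 401 TPM in resistant, 2260 and 2313 TPM in parental MAL3-101 and 132 and 128 TPM in DMSO libraries. It was higher than with DMSO by 1.56 in resistant and by 4.12 in parental cells with the drug, and lower in resistant than in parental cells with the drug by -2.57 (SE 0.05 each). CEBPB, a C/EBP factor, had 19.7 and 20.1, 79.9 and 80.4, and 4.31 and 8.03 TPM in the same libraries. The relay gene listed as KIAA0141, now DELE1, was lower in resistant than in parental cells with the drug by -0.45. Of 15 RNAs encoded in the mitochondrial genome, 12 were higher and 2 lower in resistant against parental cells with the drug, 2 and 1 in resistant cells against DMSO, and 2 and 7 in parental MAL3-101 against DMSO cells. The MT-CO2 and MT-ATP8 calls in resistant cells against DMSO were lost with no filter (adjusted p = 0.11 and 0.077). The 2 ribosomal RNAs made up 0.784% and 0.767% of TPM in resistant, 1.92% and 1.97% in parental MAL3-101 and 0.533% and 0.565% in DMSO libraries, while the 13 mRNAs made up 8.79% and 8.48%, 6.26% and 7.06%, and 7.69% and 8.65%. With these genes removed and TPM rescaled, the counts of called members were the same in all 3 comparisons; their part in the member results was not tested otherwise.

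The level changes in resistant cells were set beside those of neighbouring genes. Along chromosome 5, of the 20 tested protein-coding genes nearest to HSPA9 in gene order (10 on each side), 0 were higher and 16 lower in resistant than in DMSO cells, beside 29.7% lower over all tested genes, and their median log2 fold change was -0.58 beside -0.68 for HSPA9. The nearest, ETF1 and CTNNA1, were at -0.85 and -0.38. Against parental cells with the drug 17 of the 20 were lower and 1 higher, beside 34.8% and 21.3% over all tested genes. Their median was -0.75, and HSPA9 at -1.32 lay below that. In parental cells, where HSPA9 was higher with the drug, 6 neighbours were higher and 3 lower, beside 22.6% and 18.2%.

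Around HSPD1 and HSPE1 on chromosome 2 the neighbours went up: 16 of the 20 nearest to HSPD1, among them C2orf47 but not HSPE1, were higher and 1 lower in resistant than in DMSO cells, beside 20.9% higher over all tested genes. Their median was 0.42, above the 0.12 of HSPD1 and the 0.11 of HSPE1. For CLPX on chromosome 15, 11 of 20 neighbours were higher and 0 lower, with a median of 0.26 beside its own 0.79, and for AFG3L2 on chromosome 18, 10 were higher and 1 lower, with a median of 0.25 beside 0.45. LONP1, CLPP and TIMM44 lie on chromosome 19, where 3, 0 and 4 neighbours were higher and 6, 4 and 3 lower, and HTRA2 on chromosome 2 had 2 higher and 8 lower. YME1L1 on chromosome 10 had 3 higher and 3 lower. Against parental cells with the drug, 10 of the 20 CLPX neighbours were higher and 0 lower, with a median of 0.40 beside its own 0.37. Those of AFG3L2 were 7 and 2 (0.25 beside 0.37), and those of YME1L1 3 and 12 (-0.40 beside -0.03). HSPD1 had 8 and 3 (0.20 beside -0.24). LONP1, CLPP, TIMM44 and HTRA2 had 8 and 6, 4 and 7, 5 and 3, and 1 and 6. Over all tested genes 21.3% were higher and 34.8% lower. The part of these regional differences in the members' values was not tested.

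**Figure D5:**
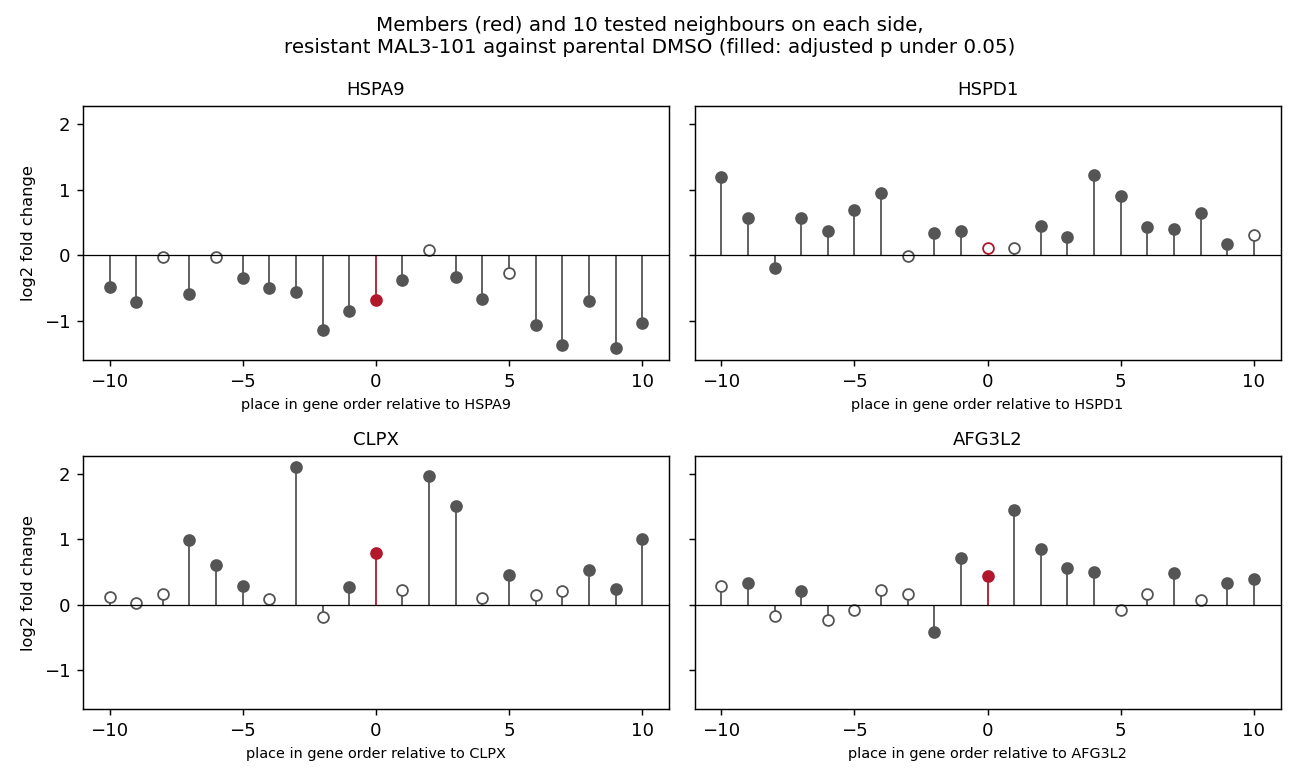
Log2 fold changes in resistant MAL3-101 against parental DMSO cells for HSPA9, HSPD1, CLPX and AFG3L2 (red, at 0) and the 10 tested protein-coding genes on each side in gene order (grey); filled points have an adjusted p under 0.05. Around HSPA9 16 of 20 neighbours are called lower, and around HSPD1 16 of 20 are called higher. Over all tested genes 29.7% are called lower and 20.9% higher.

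By Euclidean distance between log2(TPM + 1) values centred on each gene's mean over the 6 libraries, the genes most like HSPA9 among the 11506 genes that averaged at least 5 TPM in some group were C1orf52 (distance 0.08), IL15 (0.10), CANX (0.13), SEMA3C (0.16) and GLRX2 (0.16). CANX encodes calnexin, a lectin chaperone of the endoplasmic reticulum, and had 235 and 233 TPM in resistant, 639 and 595 TPM in parental MAL3-101 and 404 and 414 TPM in DMSO libraries. GLRX2, a mitochondrial glutaredoxin, had 12.0 and 13.4, 31.6 and 32.0, and 18.6 and 19.8 TPM. None of the other members was among these 5.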

How the data were processed

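RNA-seq libraries of RMS13 and RMS13-R cells were deposited by the authors as TPM values for named genes, rounded to 2 decimals, with a file for each library. The submitters' processing notes name RSEM, DESeq and the build hg19. For versions, aligner, annotation and use of strand, the sources used here give nothing. TPM keeps no read depth, so no counting error, interval or floor from counts could be given.

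Groups came from titles and descriptions. Genes whose mean reached 1 TPM in at least 1 group were tested, which kept 15148 of 55401 names. limma 3.58.1 in R 4.3.3 fitted log2(TPM + 1) by group, with all 6 libraries in the fit and its trend option on (3 residual and 4.17 prior degrees of freedom). Each gene has 1 spread shared by the 3 groups. The DMSO pair, the widest apart, therefore also enters the SE between the groups given the drug. The shared spread may be too small against DMSO and too large between those groups. With only the 4 libraries compared, 10116 genes were called between those groups in place of 8495. Against DMSO it was 6770 in place of 7662 for resistant and 4792 in place of 6181 for parental cells. Benjamini-Hochberg adjustment of the p-values ran over all tested genes of a comparison, and a call needs an adjusted p under 0.05. SE and 95% intervals are limma's moderated ones. The fit was also run on simulated data with few changed genes and equal spread in all groups. These settings differ from the data, so the run does not give the error rate here. The members and the 6 lists of partner genes (74 genes, all tested) were chosen with earlier results of these data known. Genes were named from all members, up to 4 called genes per partner list and comparison with the largest change, single cell-type markers chosen after their values were seen, and the 5 genes nearest to HSPA9 in pattern. The comparison with chromosomal neighbours, and every neighbour named, was chosen after the values were seen. Alternatives were pseudocounts of 0.1 and 5, no filter, a filter at 5 TPM, the 4 compared libraries alone, a replicate block, each library left out, median-ratio scaling and TPM without mitochondrially encoded genes. Promoter windows and gene order came from RefSeq on GRCh38.p14, matched by symbol with Python 3.11.15. Figures were drawn with matplotlib 3.10.9.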

Additional observations from a re-analysis of the deposited data

How the results depend on the processing

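Over the 14 alternatives, log2 fold changes of members kept their direction and their side of the threshold in 384 cases; 19 calls were lost, 12 were gained and 5 signs turned, all 5 in differences that had not passed. Those signs were HSPE1 between resistant and parental cells with the drug without parental MAL3-101 library A (0.019; range with a library left out -0.067 to 0.019) and with median-ratio scaling (0.082), YME1L1 in that comparison with median-ratio scaling (0.078), LONP1 between resistant and DMSO cells without DMSO library A (range -0.10 to 0.13), and AFG3L2 between parental MAL3-101 and DMSO cells without DMSO library B (range -0.020 to 0.18); the cause was not tested. For partner genes named by the rule, 899 cases were as reported, 56 calls were lost and 0 signs turned. With each library left out, called members ranged from 4 to 8 in resistant against parental cells with the drug, 5 to 7 in resistant MAL3-101 against DMSO, and 5 to 9 in parental MAL3-101 against DMSO, and called genes in all from 5999 to 10111, 5001 to 8640 and 3169 to 7684. All genes called in resistant cells against DMSO fell to 5001 and 5013 without resistant library A or B, and in parental cells to 3169 and 3397 without MAL3-101 library A or B, where 1 library is left in a group and is taken to vary like the others. With the letters as a replicate block, 7, 6 and 6 members were called in these comparisons, HSPE1 in parental cells passing (adjusted p = 0.047) and HTRA2 not (adjusted p = 0.050). No shift shared by the letters was seen, as the A minus B differences correlated across genes at only 0.03, -0.02 and -0.02 between groups. This does not tell whether libraries with the same letter were made together. Median neighbour changes with 5 or 20 genes on each side, chosen after seeing the data, were -0.43 and -0.64 for HSPA9 and 0.41 and 0.38 for HSPD1 in resistant cells against DMSO. Against parental cells with the drug they were -0.76 and -0.63 for HSPA9 and 0.27 and 0.23 for AFG3L2. In that comparison they moved more for CLPX (0.49 and 0.18) and YME1L1 (-0.53 and -0.21). Depth is unknown for TPM, so its limit on low genes could not be given; DMSO libraries differed most, with a median gap of 0.15 on the log2 scale between A and B over all tested genes and 0.09 over the members.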
